A study of Penicillium oxalicum with 24 samples.

Results

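*amyR* (PDE_03964) of *Penicillium oxalicum* was followed through 7 combinations of strain and medium that carry the gene, and the Δ*amyR* strain served as the check of its deletion. It is 1 row of the 9832 genes in the deposited table, taken by its identifier, and its transcript model is 1842 bases long. RNA of 24 cultures was sequenced, 3 biological replicates for each of 8 groups. All strains derive from the wild-type strain 114-2. Wild-type mycelium was pregrown on glucose for 22 h and then kept for 4 h either with 2% cellulose, with 2% glucose or with no carbon source at all. The mutants, each studied after 4 h on 2% cellulose only, were the single deletions Δ*amyR*, Δ*clrB* and Δ*creA*, the double deletion Δ*creA*-Δ*clrB*, and the strain Δ*creA-gpdA*(p)::*clrB*. All cultures on glucose or cellulose had stood for 2 h without carbon source before the shift. The labels of the cultures without carbon source do not list that step, although the study's methods do. In Δ*creA-gpdA*(p)::*clrB* the cellulase activator gene *clrB* is driven by the *gpdA* promoter of *Aspergillus nidulans*, and *creA* is deleted. A strain with this promoter and an intact *creA* was not among the samples, so an effect of the *clrB* construct could be read only against Δ*creA*. How many independent transformants stand behind each strain was not stated in the sources used here.

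AmyR is a zinc binuclear cluster transcription factor, best known from *Aspergillus*, where it activates genes for α-amylase, glucoamylase and α-glucosidase in response to starch breakdown products such as isomaltose. CreA is the zinc finger repressor of carbon catabolite repression, which keeps genes for the use of poorer carbon sources low while glucose is present. ClrB is an activator of cellulase genes, the counterpart of CLR-2 in *Neurospora crassa*. The comparisons ask how the carbon source and these regulators affect the amount of *amyR* transcript, and whether starch degradation genes follow it.

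The deletions were checked first. *amyR* had 1, 0 and 0 reads in the 3 Δ*amyR* libraries and 3045, 2978 and 2900 in the wild-type libraries on cellulose, at least 1039-fold lower with the deleted group set to 3 reads per library. By the same floor *clrB* was at least 641-fold lower in Δ*clrB* than in the wild-type strain and *creA* at least 1116-fold lower in Δ*creA*. In the 21 other libraries *amyR* reads covered between 99.4% and 99.95% of the transcript. The libraries held between 7.0e6 and 8.6e6 unique reads on genes. The 20 most abundant genes took 10.03% of the reads on average in the wild-type strain without carbon source, 10.5% on cellulose, 29.6% in Δ*creA-gpdA*(p)::*clrB*, 24.8% in Δ*creA* and 19.1% in the double mutant. In each of the 24 pairs of replicates the counts differed by more than sampling noise (lowest chi-square over its degrees of freedom 4.46). Libraries made separately from 1 culture could also do so, so this does not show separate cultures. Each library was counted as 1 sample because the study describes its replicates as biological.

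*amyR* transcript was abundant in the wild-type strain without carbon source and on cellulose, and low on glucose and in Δ*creA-gpdA*(p)::*clrB*. Levels are given first as RPKM, the deposited unit, which corrects read counts for transcript length and for the library's total reads on genes. In RNA of whole mycelium, fewer cells with the transcript and less of it per cell cannot be told apart. The 3 libraries of the wild-type strain without carbon source stood at 219, 266 and 209 RPKM, and those on cellulose at 214, 210.4 and 209 RPKM. On glucose the 3 libraries stood at 35.2, 33.1 and 37.7 RPKM. Glucose libraries were thus far below all others of the wild-type strain, while the other 2 media overlapped.

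Among the mutants on cellulose, the Δ*clrB* libraries held 182, 138 and 124 RPKM of *amyR* and the Δ*creA* libraries 119, 131 and 124 RPKM. The double mutant had the widest spread, with 149, 123 and 80.0 RPKM. Δ*creA-gpdA*(p)::*clrB* had the lowest values, 21.7, 16.3 and 21.8 RPKM, below every library on glucose. On this scale all libraries of Δ*clrB*, Δ*creA* and the double mutant lay below all 3 wild-type libraries on cellulose and above all 3 on glucose.

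By mean RPKM (± SD, n = 3) the order was the wild-type strain without carbon source (232 ± 30.3), the wild-type strain on cellulose (211 ± 2.26), Δ*clrB* (148 ± 30.5), Δ*creA* (124 ± 5.76), the double mutant (117 ± 34.6), the wild-type strain on glucose (35.3 ± 2.32) and Δ*creA-gpdA*(p)::*clrB* (19.96 ± 3.15). The highest mean was 11.6 times the lowest. Differences were tested with edgeR's quasi-likelihood test on the read counts, scaled by TMM, a method that sets each library's scale from the bulk of its genes. Differences are log2 fold changes with their standard error (SE), and genes with an adjusted p (Benjamini-Hochberg) under 0.05 are called past the threshold. Of the 6 steps between neighbours in this order, 1 was past the threshold, that from Δ*creA*-Δ*clrB* down to glucose (2.17 on the log2 scale, SE 0.20, adjusted p = 8.4e-09 by edgeR). In that comparison 64.4% of all genes were past it. The 4 steps above it were 0.34 or less in size on the log2 scale and not past the threshold. Of all 21 pairs of groups 10 were past the threshold for *amyR*, the pairs that set 1 of the 2 low groups against 1 of the 5 others. In these 10 pairs 19.2% to 72.4% of all genes were past it, and 4.63% to 61.1% in the other 11.

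The order changed with the scale. In TMM-scaled CPM, read counts scaled to the TMM-adjusted library size, the wild-type strain on cellulose came first (324 ± 9.997, SD, n = 3), before the wild-type strain without carbon source (313 ± 33.9), Δ*creA* (265 ± 23.8), Δ*clrB* (256 ± 35.1), Δ*creA*-Δ*clrB* (248 ± 81.8), glucose (55.0 ± 4.19) and Δ*creA-gpdA*(p)::*clrB* (51.3 ± 5.63). The range shrank to 6.33 times, and the 2 low groups overlapped, with 50.4 to 58.7 on glucose and 44.8 to 55.4 in Δ*creA-gpdA*(p)::*clrB*.

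**Figure D1:**
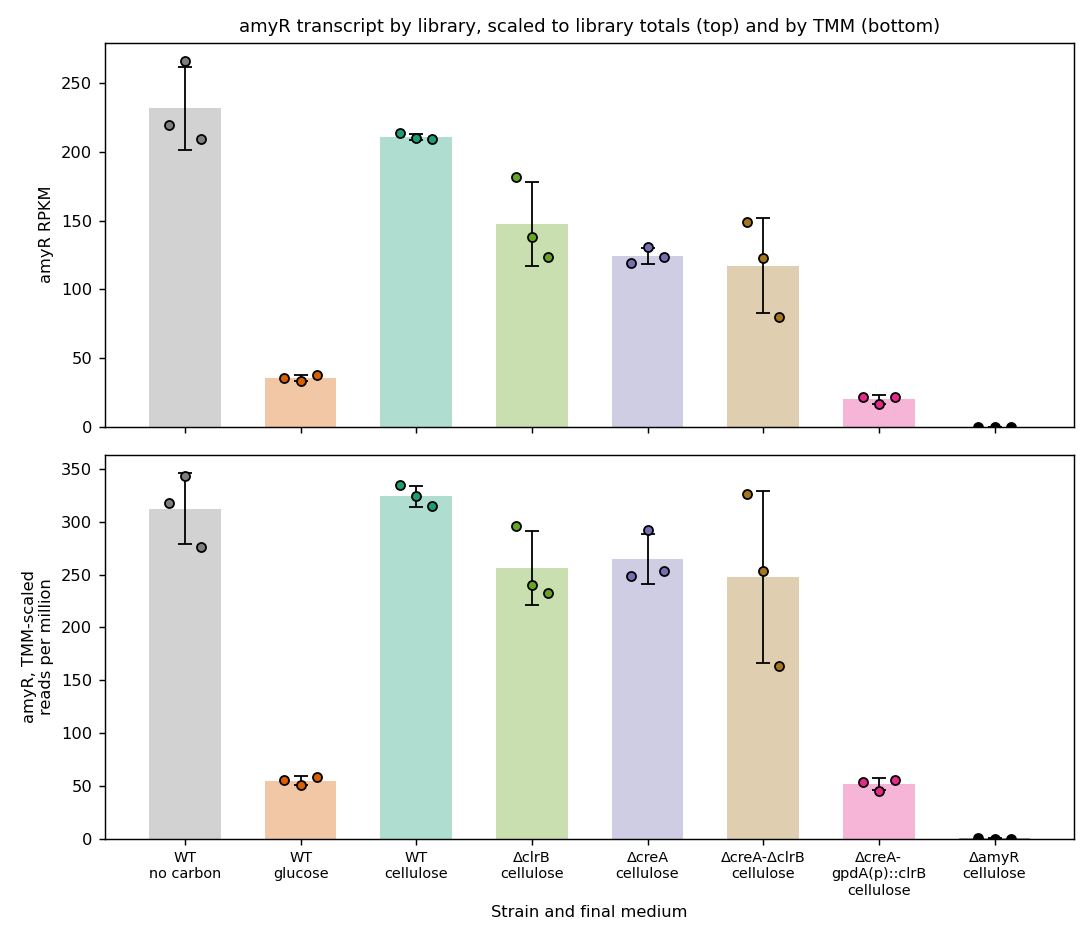
*amyR* in each library (points) with the group mean (bar) and SD (error bar, n = 3), as RPKM in the upper panel and as TMM-scaled CPM in the lower panel. The 2 groups at the bottom of the 7 that carry the gene, wild type on glucose and Δ*creA-gpdA*(p)::*clrB*, have means of 35.3 and 19.96 RPKM but 55.0 and 51.3 TMM-scaled CPM.

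The first comparison asks what the carbon source did in the wild-type strain. *amyR* was lower on glucose than in medium without carbon source, with a log2 fold change of -2.51 (SE 0.20, adjusted p = 9.8e-10 by edgeR's quasi-likelihood test), a 5.68-fold fall. In this comparison 68.9% of the genes tested were past the threshold, so a change as such was common, but 86.6% of genes had a smaller change than *amyR*. On cellulose it was 5.90-fold higher than on glucose (log2 fold change 2.56, SE 0.20, adjusted p = 7.2e-10 by edgeR), in a comparison with 70.5% of genes past the threshold. Cellulose and the medium without carbon source did not differ detectably (log2 fold change 0.05, 95% interval -0.34 to 0.45, adjusted p = 0.87 by edgeR), where 24.2% of genes were past the threshold. The sign of this last difference turned with the scaling, to -0.13 with library totals. The level on cellulose was therefore not above that of carbon starvation by any amount these replicates could resolve.

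In Δ*clrB* and in Δ*creA* the mean of *amyR* lay below that of the wild-type strain on cellulose, but with TMM neither difference was past the threshold. The 3 wild-type libraries on cellulose are the reference of all comparisons with wild type that follow. The log2 fold change was -0.34 in Δ*clrB* (SE 0.19, 95% interval -0.74 to 0.06, adjusted p = 0.37 by edgeR), with 4.63% of genes past the threshold. It was -0.29 in Δ*creA* (SE 0.19, 95% interval -0.69 to 0.10, adjusted p = 0.27 by edgeR), with 27.8% of genes past the threshold. In both mutants all 3 libraries lay below the 3 wild-type libraries also after TMM scaling, at 232 to 296 CPM in Δ*clrB* and 249 to 292 in Δ*creA* against 315 to 335. In the double mutant the log2 fold change was -0.39 (SE 0.19, 95% interval -0.79 to 0.01, adjusted p = 0.11 by edgeR), with 43.0% of genes past the threshold. Its 3 libraries held 327, 253 and 163 TMM-scaled CPM, so replicate 1 lay among the wild-type libraries. Without that replicate the log2 fold change of the double mutant was -0.64 (adjusted p = 0.0078 by edgeR).

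Scaling changed whether the differences in Δ*creA* and Δ*creA*-Δ*clrB* passed the threshold, while that in Δ*clrB* passed with neither scaling. When total reads set the scale, as they do for RPKM, the log2 fold change was -0.76 in Δ*creA* (adjusted p = 0.0031 by edgeR) and -0.85 in Δ*creA*-Δ*clrB* (adjusted p = 0.0012), and -0.51 in Δ*clrB* (adjusted p = 0.11). This scaling moved the median of all genes to -0.18 in Δ*clrB*, -0.45 in Δ*creA*, -0.43 in the double mutant and -0.74 in Δ*creA-gpdA*(p)::*clrB*, and TMM held it within 0.02. Relative to the median gene, *amyR* in Δ*creA* stood at -0.30 with TMM and at -0.31 with library totals. Among the genes past the threshold, 54.2% were higher in Δ*creA* with TMM and 11.8% with library totals. That share went from 57.9% to 23.1% in Δ*clrB*, from 55.1% to 15.8% in the double mutant and from 53.7% to 10.6% in Δ*creA-gpdA*(p)::*clrB*. The same shift occurred in other comparisons, from 52.5% to 42.3% on glucose and from 47.9% to 20.6% on cellulose, both against medium without carbon source, from 49.8% to 7.67% in Δ*amyR*, and in Δ*creA-gpdA*(p)::*clrB* from 49.5% to 14.8% against Δ*creA* and from 48.6% to 19.8% against glucose. The share of reads held by the 20 most abundant genes was 13.4% in Δ*clrB* and, as given above, higher in the other 3 of these mutants, and its part in the difference between scalings was not tested.

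In Δ*creA*, too, deletion of *clrB* gave no detectable change of *amyR* (log2 fold change -0.10, 95% interval -0.49 to 0.30, adjusted p = 0.72 by edgeR), in a comparison with 38.9% of genes past the threshold. Likewise, deletion of *creA* in Δ*clrB* gave -0.05 (95% interval -0.45 to 0.35, adjusted p = 0.85 by edgeR), with 44.5% of genes past the threshold. The effect of deleting *clrB* in Δ*creA* minus its effect in the wild-type strain was 0.24 (SE 0.27, adjusted p = 0.58 by edgeR), in a test that 17.3% of genes passed. A difference between the 2 backgrounds was not detectable, and the interval of -0.32 to 0.81 leaves room for one of moderate size.

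The largest change among strains was in Δ*creA-gpdA*(p)::*clrB*, where *clrB* was high and *creA* absent. *clrB* itself had a mean of 427 RPKM in this strain and of 104 RPKM in Δ*creA* (log2 fold change 2.33, SE 0.18, adjusted p = 1.1e-07 by edgeR). *amyR* fell 6.33-fold against the wild-type strain (log2 fold change -2.66, SE 0.20, adjusted p = 3.6e-09 by edgeR), with 48.9% of genes past the threshold. Against Δ*creA* it fell 5.16-fold (log2 fold change -2.37, SE 0.20, adjusted p = 2.7e-07 by edgeR), and here 19.2% of genes were past the threshold. A lower value than that of *amyR* was found for 0.981% of the genes tested in this comparison, and 98.7% had a smaller change. Against the double mutant, which lacks *clrB* as well as *creA*, it fell by 2.27 on the log2 scale (adjusted p = 3.0e-08 by edgeR), where 45.3% of genes were past the threshold. Among the strains without *creA*, *amyR* was thus near the Δ*creA* level with *clrB* deleted and far below both with the promoter in place.

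The level in Δ*creA-gpdA*(p)::*clrB* on cellulose was near that of the wild-type strain on glucose, with a log2 fold change of -0.10 (95% interval -0.51 to 0.31, adjusted p = 0.67 by edgeR) and 61.1% of genes past the threshold. With library totals the same difference was -0.82 (adjusted p = 0.00097 by edgeR), where the median of all genes was -0.76.

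**Figure D2:**
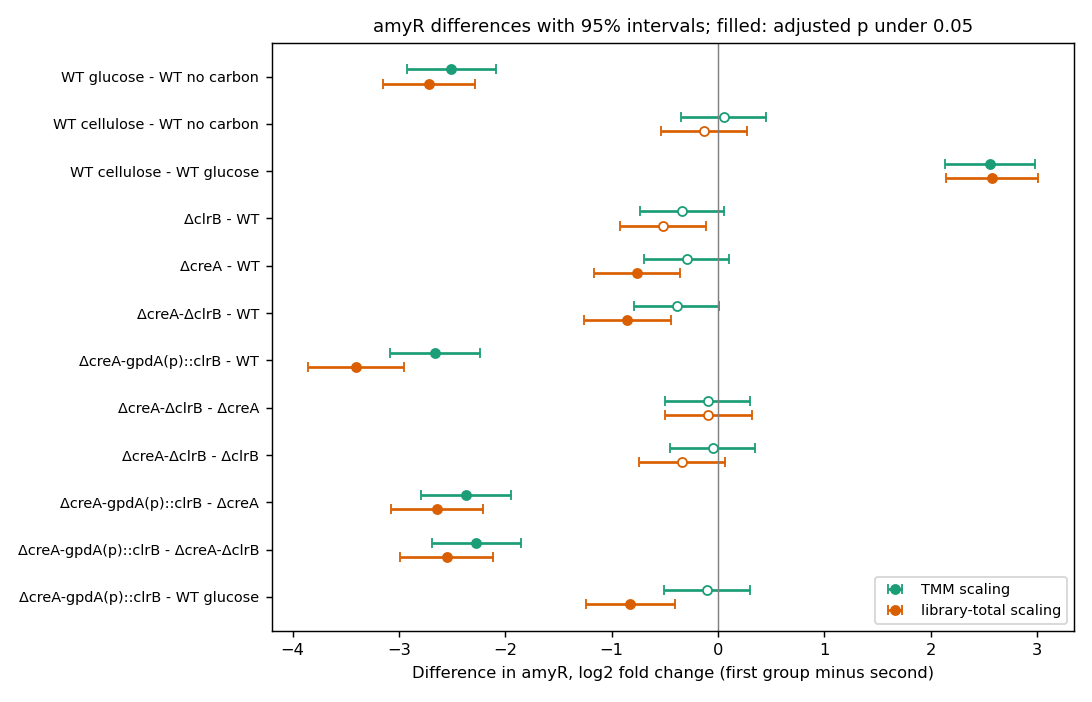
Differences in *amyR* between groups as log2 fold changes (horizontal axis) with 95% intervals, for TMM and for library-total scaling; filled points had an adjusted p under 0.05. Glucose and Δ*creA-gpdA*(p)::*clrB* stand apart under both scalings, whereas Δ*creA* moves from -0.29 to -0.76 and Δ*creA*-Δ*clrB* from -0.39 to -0.85.

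Most starch degradation genes were low with *amyR* on glucose, but their levels ran apart from it in Δ*creA* against the wild-type strain. In Δ*creA-gpdA*(p)::*clrB* they ran apart from it against the wild-type strain on glucose or cellulose. Against Δ*creA*, most of them fell together with *amyR* in that strain. The list held the 7 genes that the study names with these libraries in hand, so its response to *amyR* deletion is no independent evidence. Nor are its responses to cellulose and to deletion of *clrB* or *creA*. From these libraries the study named PDE_01354, PDE_05527 and PDE_01201 as raised on cellulose, lower in Δ*clrB* and higher in Δ*creA*. It also placed PDE_00400 among the genes raised on cellulose. It consists of *amy13A* (PDE_01201, an α-amylase, which cuts starch chains internally), *gluA* (PDE_09417) and PDE_05527 (glucoamylases, which release glucose from chain ends), PDE_01354 (a protein with a starch binding domain), and PDE_04151, PDE_00400 and PDE_03966 (putative α-glucosidases, a family that releases glucose from maltose and short chains). All 7 fell in Δ*amyR* against the wild-type strain, with a median log2 fold change of -5.53, where 9.84% of all genes were lower and the median gene stood at -0.02.

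On glucose 6 of the 7 fell together with *amyR*, with a median of -4.83 on the log2 scale against medium without carbon source, while 32.7% of all genes were lower. *gluA* went from 980, 884 and 968 RPKM without carbon source to 8.15, 9.39 and 5.67 RPKM on glucose. That is a log2 fold change of -6.73 (SE 0.49, adjusted p = 2.2e-10 by edgeR), larger in size than the -2.51 of *amyR*. The exception was PDE_03966, which rose by 1.77 on the log2 scale (SE 0.25, adjusted p = 2.7e-06) from a mean of 46.5 RPKM to one of 138 RPKM. It reached 175 RPKM on cellulose and so was the 1 listed gene whose level on glucose and on cellulose did not differ detectably (log2 fold change 0.32, adjusted p = 0.24).

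Between medium without carbon source and cellulose, where *amyR* did not differ detectably, 6 of the 7 starch genes rose and none fell, against 11.6% of all genes higher. The median of the list was 1.22 on the log2 scale. PDE_01354 rose most, by 2.55 (SE 0.33, adjusted p = 1.3e-05 by edgeR), from 213 to 1102 RPKM. *gluA* stood at 0.66 (adjusted p = 0.22). Leaving out any 1 of the 6 libraries brought the number of genes that rose to 4 or 5, and library totals brought it to 4.

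In Δ*creA*, where *amyR* stood at -0.29, 4 of the 7 starch genes rose and none fell, against 15.1% of all genes higher. *amy13A* went from 326, 302 and 245 RPKM in the wild-type strain to 1105, 1691 and 1193 RPKM in Δ*creA*. The 2 groups did not overlap, and the log2 fold change was 2.67 (SE 0.40, adjusted p = 4.8e-05 by edgeR). PDE_01354 rose by 2.62, *gluA* by 2.27 and PDE_05527 by 1.57, whereas the 3 α-glucosidase genes stood between -0.03 and 0.44 and were not past the threshold.

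In Δ*clrB*, where *amyR* stood at -0.34, 5 of the 7 fell, with a list median of -1.45 and 1.95% of all genes lower. PDE_03966 had the largest fall, with a log2 fold change of -2.92 (SE 0.26, adjusted p = 2.4e-07 by edgeR), followed by PDE_01354 with -2.51. *amy13A*, with 124, 165 and 67.4 RPKM, had a log2 fold change of -1.13 (adjusted p = 0.10), and PDE_04151 stood at -0.34. In the double mutant 2 of the 7 rose, against 23.7% of all genes, and 2 fell, against 19.3%. *gluA* (1.37) and PDE_04151 (0.82) were higher, and PDE_03966 (-1.73) and PDE_00400 (-0.88) lower. Against Δ*creA* the double mutant had 5 starch genes lower and none higher, with a median of -1.70 and 19.2% of all genes lower.

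In Δ*creA-gpdA*(p)::*clrB* the *amyR* level was near that of the wild-type strain on glucose, yet 6 of the 7 starch genes were higher than on glucose, with a list median of 5.29 on the log2 scale and 29.7% of all genes higher. *gluA* had 1663, 1349 and 443 RPKM in this strain, all far above the 5.67 to 9.39 RPKM on glucose (log2 fold change 7.95, SE 0.52, adjusted p = 4.3e-11 by edgeR). PDE_03966 was again the exception, at -1.49 and past the threshold, where 31.5% of all genes were lower. Against the wild-type strain on cellulose 2 of the 7 were lower, PDE_03966 (-1.81) and PDE_00400 (-0.84), with 22.6% of all genes lower and none of the list higher. The other 5 stood between -0.36 and 0.76. Against Δ*creA* 6 of the 7 fell, with a median of -1.71 and 9.68% of all genes lower, and *amy13A* fell most, by 3.03 (SE 0.41, adjusted p = 4.7e-05).

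Replicate 3 of Δ*creA-gpdA*(p)::*clrB* stood apart for some of these genes and not for *amyR*. It held 443 RPKM of *gluA*, 56.1 of *amy13A*, 586 of PDE_01354 and 64.9 of PDE_04151, each below the 2 other replicates, and 21.8 RPKM of *amyR*, the highest of the 3. Without it 2 of the 7 starch genes were higher than in the wild-type strain, in place of 0.

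Across the 21 libraries that carry *amyR*, the Pearson correlation of log2(RPKM + 1) with *amyR* lay between 0.12 for PDE_03966 and 0.61 for PDE_00400 over the 7 starch genes, and the median over all 7033 genes compared was 0.30. With TMM-scaled values the 7 genes lay between -0.05 for PDE_03966 and 0.63 for PDE_04151, and the median over all genes compared was -0.07. PDE_05527 was the next lowest of the 7, at 0.38. How the starch genes stood against the median gene thus depended on the scaling. The 21 libraries fall into 7 groups and share 3 wild-type media, so the values describe the groups more than independent samples.

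**Figure D3:**
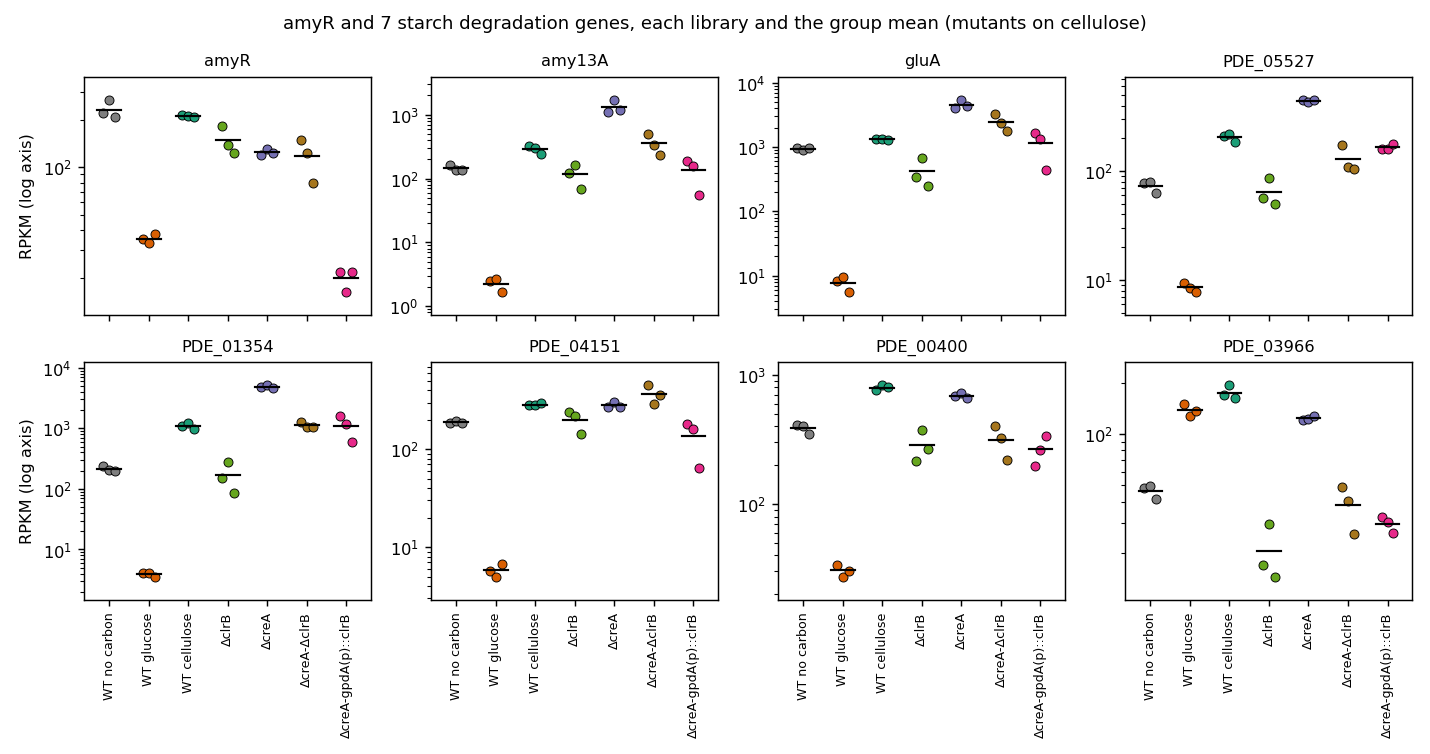
RPKM (log axis, its range differs between panels) of *amyR* and the 7 starch degradation genes in each of 21 libraries (points), with group means (lines). *amyR* is low in both glucose and Δ*creA-gpdA*(p)::*clrB*, while *gluA* is at 5.67 to 9.39 RPKM on glucose and at 443 to 1663 RPKM in Δ*creA-gpdA*(p)::*clrB*. Both genes are lower in Δ*creA-gpdA*(p)::*clrB* than in Δ*creA*, where *gluA* is at 4038 to 5356 RPKM and *amyR* at 119 to 131 RPKM.

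*amyR* was compared with 19 further transcription factor genes that the study had screened by deletion. Among the 20, *amyR* ranked between 3 and 6 by mean RPKM in 5 groups, 8 on glucose and 13 in Δ*creA-gpdA*(p)::*clrB*. Its range of 11.6 times between the highest and the lowest group mean was the fifth largest in RPKM and, at 6.33 times, the seventh largest in TMM-scaled CPM, when strains lacking the gene in question were left out. In RPKM *clrB* had the widest range (39.6 times), followed by PDE_01706 (22.1 times), *clrB-2* (PDE_05883, named as a second cellulose degradation regulator, 18.3 times) and PDE_07134 (12.6 times). *xlnR* (PDE_07674), the activator of xylanase genes, had 11.2 times in RPKM and 18.6 times in TMM-scaled CPM, and *ace1* (PDE_01988), related to a repressor of cellulase genes in *Trichoderma reesei*, had 3.03 times in RPKM.

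Some of the other regulators fell on glucose with *amyR* and others rose, in counts not far from the shares over all genes. Against medium without carbon source 8 of the other 19 fell on glucose and 5 rose, where 32.7% of all genes were lower and 36.2% higher. With library totals 10 fell and 3 rose, where 38.4% of all genes were lower and 28.2% higher. *clrB* fell by 2.49 on the log2 scale (adjusted p = 3.9e-10 by edgeR), *creA* by 1.49 and *xlnR* by 1.23, next to -2.51 for *amyR*, and *clrB-2* rose (adjusted p = 8.9e-06). On cellulose against medium without carbon source 7 rose and 1 fell, where 11.6% of all genes were higher and 12.6% lower. With library totals 4 rose and 3 fell, where 5.09% of all genes were higher and 19.6% lower. *clrB* rose by 0.84, *xlnR* by 1.15 and *clrB-2* by 2.34, where *amyR* did not differ detectably.

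Some regulator genes, *clrB-2* and *xlnR* among them, went the other way from *amyR* in Δ*creA-gpdA*(p)::*clrB*. The reference group here was the Δ*creA* strain, not the wild-type strain, and most of the 19 were not past the threshold. In this comparison 3 of the 19 rose and 1 fell, not far from the shares over all genes (9.50% higher and 9.68% lower). *clrB*, which carries the construct, *clrB-2* (log2 fold change 1.12, SE 0.16, adjusted p = 8.7e-05 by edgeR) and *xlnR* (1.12, SE 0.22, adjusted p = 0.0013) were the 3 that rose, and with library totals 3 rose and 4 fell. The 1 that fell, named after its values were seen, was PDE_01706, at -2.08 (SE 0.46, adjusted p = 0.0030). *xlnR* had a mean of 103 RPKM in this strain, and 9.18 RPKM on glucose, so unlike *amyR* it stood at opposite ends of its range in the 2 groups. In Δ*amyR* against the wild-type strain 9 of the 19 rose and none fell, with 9.75% of all genes higher. This count rested on the scaling: with library totals, which move the median gene to -0.43 here and call 3.26% of all genes higher and 39.2% lower, 2 rose and 1 fell. With TMM *clrB-2* rose by 2.08 (SE 0.17, adjusted p = 8.3e-08), *xlnR* by 0.73 and *creA* by 0.64, and *clrB* stood at 0.42 (adjusted p = 0.096).

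**Figure D4:**
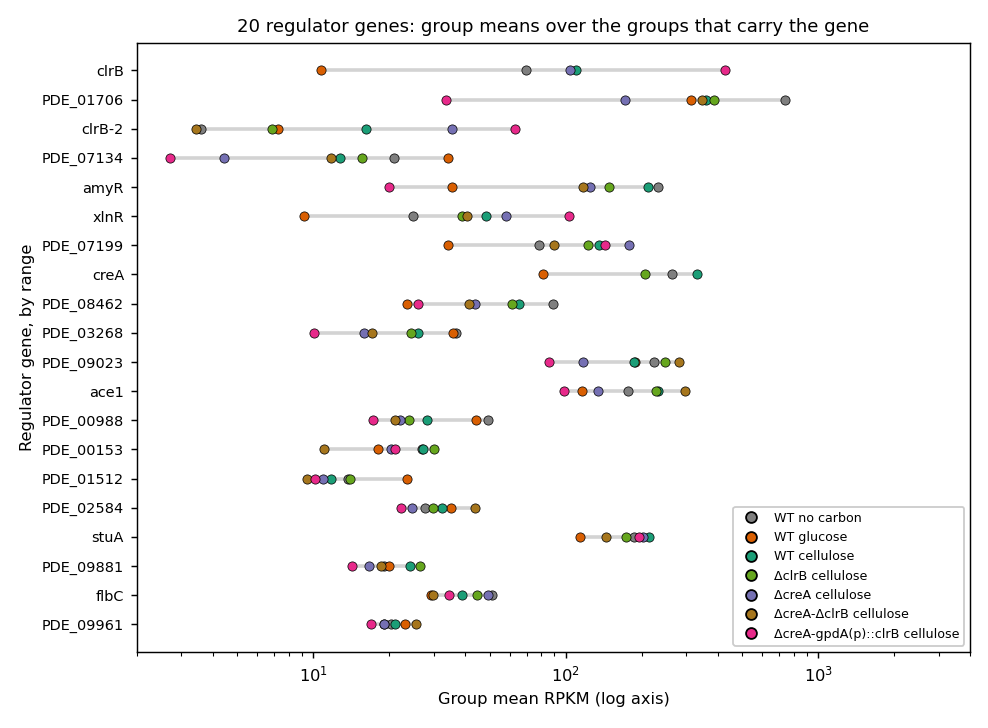
Group means of RPKM (log axis) for 20 regulator genes, ordered by the ratio of the highest to the lowest; points are groups, with strains lacking the gene left out. *amyR* is lowest in Δ*creA-gpdA*(p)::*clrB* (19.96 RPKM), the group in which *clrB*, *clrB-2* and *xlnR* are highest. A lowest mean RPKM in this group is not particular to *amyR*, since other regulators, PDE_01706, PDE_07134 and *ace1* among them, share it.

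The 5 genes numbered before and the 5 after *amyR* were examined because in *Aspergillus* species the gene lies beside an α-glucosidase gene. PDE_03966, a putative α-glucosidase of the starch list, carries the second number after *amyR*. It had 169, 194 and 162 RPKM in the wild-type strain on cellulose and 1.77, 2.14 and 3.41 RPKM in Δ*amyR*. The groups were far apart, and the log2 fold change was -5.75 (SE 0.30, adjusted p = 1.4e-10 by edgeR), with 2 of the 10 numbered neighbours lower and none higher, where 9.84% of all genes were lower. With library totals 6 of the 10 and 39.2% of all genes were lower. The other was PDE_03965, whose number lies between them, which stood at -1.53 (SE 0.47, adjusted p = 0.026) from a mean of 5.31 RPKM. PDE_03965 was also lower than in the wild-type strain in Δ*creA* (-1.25, where 12.8% of all genes were lower), in the double mutant (-1.74) and in Δ*creA-gpdA*(p)::*clrB* (-2.12), the 3 strains without *creA*. Its reads cannot be told apart from those of an overlapping transcript, since whether the counting used strand was not stated.

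On glucose against medium without carbon source 4 of the 10 neighbours fell and 3 rose, near the shares over all genes (32.7% lower and 36.2% higher). PDE_03967 had 2.22 RPKM on average on glucose and 126 RPKM without carbon source (log2 fold change -5.62, SE 0.28, adjusted p = 1.3e-12 by edgeR), and PDE_03968 fell by 5.57. Unlike PDE_03966, these 2 stood at 0.04 and -0.47 in Δ*amyR* and were not past the threshold. In Δ*clrB* PDE_03966 was the 1 gene of the 10 past the threshold, where 4.63% of all genes were past it. Deletion of *clrB* gave PDE_03966 a change that differed between backgrounds. It was -2.92 with *creA* and -1.70 without it, and the difference of 1.22 was past the threshold (SE 0.34, adjusted p = 0.019 by edgeR). The same difference was 1.06 for PDE_03961 (SE 0.22, adjusted p = 0.0030).

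**Figure D5:**
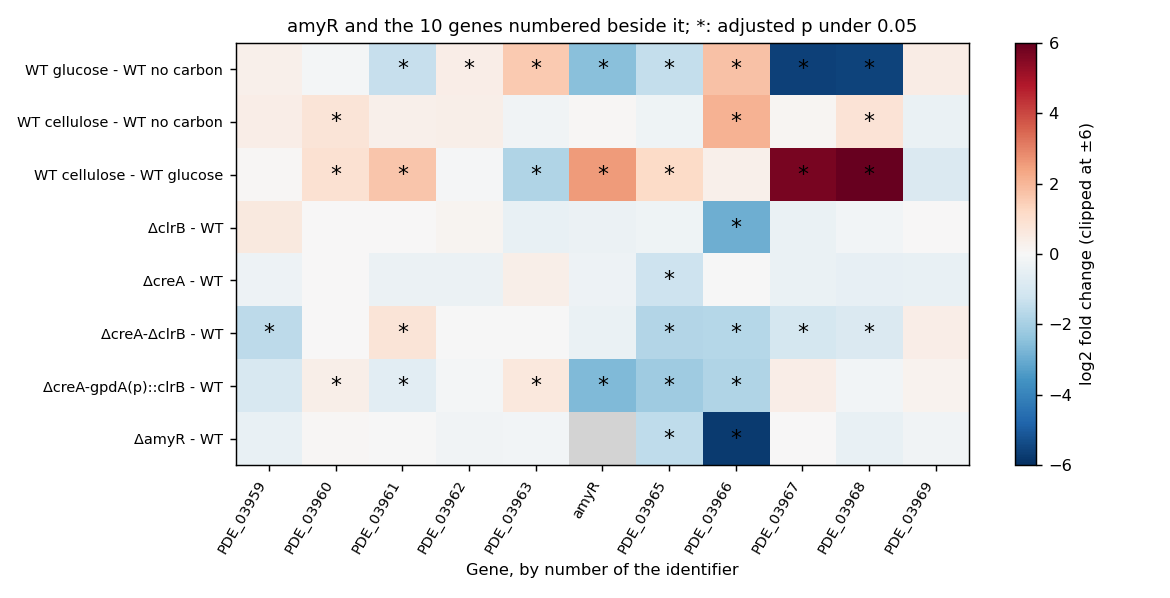
Log2 fold changes (colour, clipped at ±6) of *amyR* and the 10 genes numbered beside it in 8 comparisons; asterisks mark an adjusted p under 0.05, and the grey cell is the deleted gene. PDE_03966 is at -5.75 in Δ*amyR* and at -2.92 in Δ*clrB*, while PDE_03967 and PDE_03968 change with glucose.

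Genes whose pattern was most like that of *amyR* were sought among the genes tested that had a mean of at least 10 RPKM, by the Pearson correlation of log2(RPKM + 1) over the 21 libraries. The 6 highest were PDE_08618, PDE_06527, PDE_04850, PDE_06238, PDE_06368 and PDE_04340, with values from 0.955 to 0.958. The 3 lowest were PDE_00780, PDE_04327 and PDE_02330, from -0.878 to -0.871. A value above 0.9 was found for 77 of 7033 genes, so the 6 are the top of a broad group. PDE_04850, listed as a hypothetical protein, had means of 207 RPKM without carbon source, 144 on cellulose, 19.2 on glucose and 19.9 in Δ*creA-gpdA*(p)::*clrB*. PDE_02330 ran opposite, with 472, 700, 3584 and 2846 RPKM in the same groups. The choice depended on the measure. By Spearman correlation 0 of the 6 were again among the top 6, with TMM-scaled values 2 and with the 7 group means 3. Of the 3 most opposite genes, 0 were again among the lowest 3 by any of these measures.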

How the data were processed

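RNA was sequenced from 24 cultures, and per the labels the reads were called with CASAVA 1.8. The authors mapped them with SOAP2 to the predicted transcripts of strain 114-2. The deposited counts are unique reads per gene, and the deposited RPKM was computed by the authors from them with the library total as base. Coverage, as deposited, gives the percent of a transcript's length that reads cover. Libraries held between 7.0e6 and 8.6e6 reads. 0 per-sample columns were left without a sample. Counting error alone was 1.65% to 6.23% of the *amyR* count in the 21 libraries that carry the gene, and intervals here measure the spread between replicates. Of the 9832 identifiers 0 were found in the RefSeq table at hand, so no position is given and names are those of the study.

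Counts were analysed with edgeR 4.0.16 in R 4.3.3. The 9176 genes that reached 1 RPKM in 3 or more libraries were kept and scaled by TMM, and all 24 libraries entered 1 quasi-likelihood fit with 8 group means. Benjamini-Hochberg adjustment ran over all genes tested, and an adjusted p under 0.05 was the threshold. Groups at or under 3 reads per library were set to that floor for bounds. The script was tested on simulated data. Python 3.11.15 with pandas 2.3.3 was used for the tables.

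The genes named were *amyR*, 7 starch genes, 5 regulator genes, the neighbours by number with the largest change in a comparison, and the 6 most like and 3 most opposite patterns. The regulators PDE_01706 and PDE_07134 and the neighbour PDE_03961 were named after their values were seen. The gene, the lists and the tests were chosen with earlier results of these data known. Alternatives were median-ratio and library-total scaling, no filter, limma 3.58.1 on log2(RPKM + 1) and log2(RPKM + 0.1), DESeq2 1.42.0, a fit of the groups compared alone, the replicate number as a block, an absolute log2 fold change above 1, and each library left out in turn. Counts over the regulator and neighbour lists with library totals, and ranges of regulators in TMM-scaled CPM, were added after seeing the data.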

Additional observations from a re-analysis of the deposited data

Results flagged for a closer look

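For PDE_03966 the effect of deleting *clrB* without *creA* minus that with *creA* was 1.22 on the log2 scale (SE 0.34, adjusted p = 0.019 by edgeR's quasi-likelihood test), a difference between the 2 backgrounds tested by an interaction term. For PDE_03961 the same difference was 1.06 (SE 0.22, adjusted p = 0.0030 by edgeR). For *amyR* itself it was 0.24 (adjusted p = 0.58). Of the 7 starch genes 1 and of the 10 numbered neighbours 2 were past the threshold in this test, with PDE_03966 in both lists. Of the 19 other regulator genes 5 were past it. Over all genes 17.3% passed, so these counts lie near the background. Among those regulators were *clrB-2* at -2.32 (SE 0.25, adjusted p = 3.8e-06 by edgeR) and *ace1* at 0.94 (SE 0.26, adjusted p = 0.017). The causes were not tested.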

How the results depend on the processing

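The falls of *amyR* on glucose and in Δ*creA-gpdA*(p)::*clrB* against wild type, Δ*creA* and Δ*creA*-Δ*clrB* kept their direction and side of the threshold under every alternative run. Of the other results for *amyR*, those that moved did so mainly with scaling. With library totals, limma on log2(RPKM + 1) and limma on log2(RPKM + 0.1), the log2 fold change was -0.76, -0.76 and -0.76 in Δ*creA* and -0.85, -0.89 and -0.90 in Δ*creA*-Δ*clrB*, each past the threshold. For cellulose against medium without carbon source these settings gave -0.13, -0.13 and -0.13, for Δ*creA* against Δ*clrB* -0.25, -0.23 and -0.23 (0.05 with TMM), neither past the threshold. For the comparison of Δ*creA-gpdA*(p)::*clrB* with glucose they gave -0.82, -0.80 and -0.83, all past it. They put 16, 16 and 16 of the 21 pairs of groups past the threshold, in place of 10. Fitting the groups compared alone gave -0.31 in Δ*creA* (adjusted p = 0.017). The causes of these changes were not tested, except that library totals shift the median gene.

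Leaving out 1 library at a time gave ranges of -0.027 to 0.13 for cellulose against no carbon source, -0.64 to -0.16 for Δ*creA*-Δ*clrB* and -0.37 to -0.25 for Δ*creA* against wild type. It gave -0.35 to 0.13 for *clrB* deletion in Δ*creA*, -0.30 to 0.18 for *creA* deletion in Δ*clrB*, -0.0061 to 0.47 for their interaction, -0.030 to 0.16 for Δ*creA* against Δ*clrB* and -0.16 to 0.019 for Δ*creA-gpdA*(p)::*clrB* against glucose. The 1 change of side was that of Δ*creA*-Δ*clrB* without its replicate 1 (-0.64).

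Of the starch genes, the 2 that were higher in Δ*creA*-Δ*clrB* became 1 when a log2 fold change above 1 was required or with library totals, 0 with either limma fit, and 1 to 2 with a library left out. The 2 lower became 1 under the fold requirement and 1 to 3 with a library left out. In Δ*creA-gpdA*(p)::*clrB* against wild type, 1 was higher in place of 0 with DESeq2, with the replicate block or with the groups compared alone, and 0 to 2 with a library left out. The 2 lower there became 1 under the fold requirement, 4 with library totals and with either limma fit, and 1 to 2 with a library left out.

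Replicate numbers did not pair the samples: the deviations of same-numbered libraries had a mean correlation of -0.02 over 84 pairs, and 8 were over 0.1. The replicate block changed no call for *amyR*. Depth was not limiting for *amyR*, which had at least 258 reads in each library that carries it.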
